A study of Mus musculus with 7 samples.

Results

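Mouse embryonic fibroblasts (MEF) were set against 6 other mouse cell populations at once, to find which genes, and which cell types by their genes, stood out in the fibroblast culture. MEF is 1 library of 7, and each of the 6 other populations is also 1 library. A gene was called higher in MEF when its level was at least 4-fold above the highest of the 6 others, after adding 1 RPKM to each, and lower when it was at least 4-fold below the lowest of them. RPKM is a read count scaled to exon length and library depth. Exon values were averaged per gene, with longer exons weighing more. With 1 library per group a value has no replicate error, a difference has no test, and the intervals given below cover counting error only.

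The series follows fibroblasts that are converted to neural stem cells (NSC) with the reprogramming factors Oct4, Sox2, Klf4 and Myc (OSKM), by RNA sequencing. The MEF library came from the strain A12 with the Mbd3 flox/- genotype. The others were tdTomato-positive cells, sorted on day 6 of conversion after doxycycline and 4OHT from day 1 to 6, and mechanically subcloned OSKM NSC with the Nanog-Tomato label (Tomato+ NSC) or without it (Tomato- NSC). These 3 libraries had the strain B6/129 and carried Rosa26-TdTomato and Col1a-OSKM, and the day 6 cells came from Nanog-CreER reporter MEFs. The rest were primary brain NSC of strain BDF2, from midgestation embryos whose day the labels give in different ways, induced pluripotent stem cells (iPSC) of strain A12 (Mbd3 flox/-), and v6.5 embryonic stem cells (ESC). The labels give MEF feeders for ESC, the same with question marks for iPSC, and no feeders for the day 6 cells and the OSKM NSC. The passage of the MEF culture, the number of embryos pooled and any treatment of it are not given in the labels, and of the 6 others only iPSC share the strain of MEF, so that strain and cell population cannot be told apart between MEF and the other 5.

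Embryonic fibroblasts are usually grown by dissociating the trunk and limbs of an embryo and keeping the cells that attach to plastic. Fibroblasts make and cross-link the collagen and elastin matrix, and on stiff plastic under Tgf-beta signals they can become myofibroblasts, which carry smooth muscle actin stress fibres. Such a culture can also hold other attached cells of the embryo, among them muscle precursors, cells of the body cavity lining and macrophages. In RNA from a whole culture, more cells of a type and more RNA per cell cannot be told apart.

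The depth inferred from the steps of the values was 45000000 reads in MEF and between 19000000 and 58000000 reads in the 6 others. Summed over all exons, reads came to 3.56 times that depth in MEF and to between 3.04 and 3.66 times in the 6 others, so exon reads are not independent counts of fragments. The read ratio intervals below treat them as independent and can be too narrow even for counting error. At these depths between 96.3% and 96.5% of the values came out as whole reads, with a tolerance of 0.01 read and a relative 1e-05, tested below 5000 reads. The Mbd3 gene, flox/- in strain A12 by its label, stood at 65.3 RPKM in MEF, against 68.4 in iPSC of the same strain and 73.6 to 271 in the other 5 populations. The gene-level value does not separate its alleles.

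Of 18697 genes that reached 2 RPKM in at least 1 library, 590 (3.16%) were called higher in MEF than in all 6 others, and 35 (0.187%) were called lower than in all 6. Among the higher genes 550 were protein coding, 122 passed 16-fold and 31 passed 64-fold, and 184 stood at 100 RPKM or more. They made up 16.4% of the summed exon signal in MEF, against 1.12% in ESC, 0.900% in Tomato+ NSC, 0.399% in Tomato- NSC, 0.393% on day 6, 0.387% in iPSC and 0.313% in brain NSC. The rule that picked these genes makes the share larger in MEF by construction. The sum also holds genes of even exon reads, a limit described below for chromosome 7. Since the highest of 6 libraries is the bar, the median log2 ratio over all tested genes was -1.14, and 3196 genes (17.1%) had their highest level in MEF. Against each population alone, 16154 to 16816 genes were tested. MEF was 4-fold higher in 2607 and 4-fold lower in 1330 genes against day 6 cells. The counts were 2351 and 1735 against iPSC, 2161 and 1177 against brain NSC, and 1951 and 1158 against Tomato- NSC. They were 1377 and 1032 against Tomato+ NSC, and 1767 and 1933 against ESC, where more genes were lower than higher. The ESC library was the highest of the 6 others for 250 of the 590 higher genes and Tomato+ NSC for 162, and 16 of the genes had no read in any of the 6. With ESC and iPSC both left out of the others, 915 genes were higher.

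**Figure D1:**
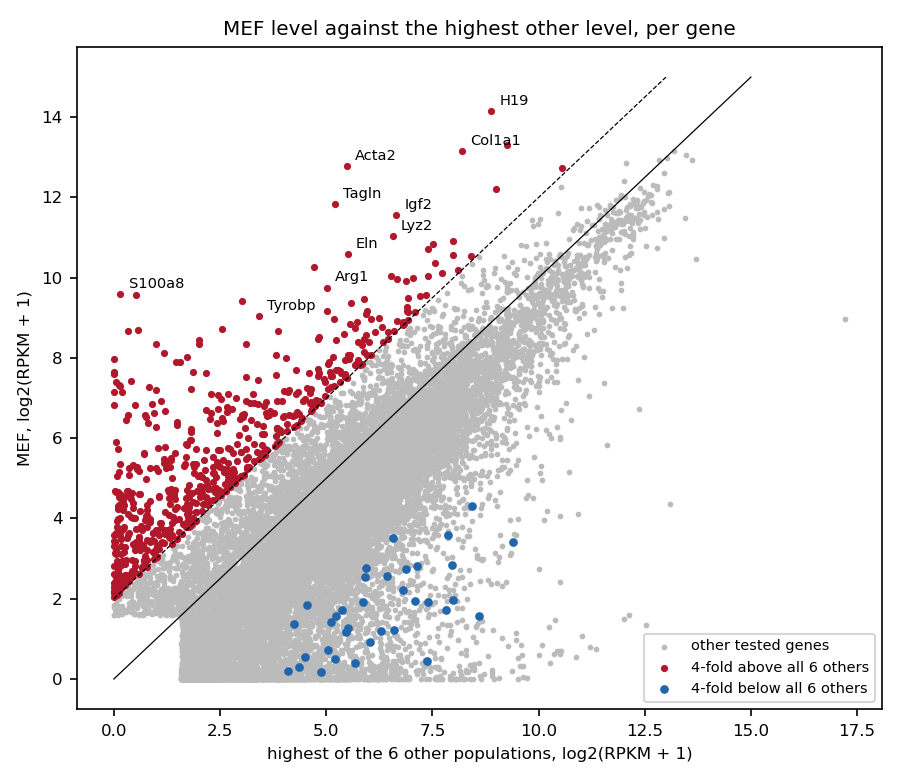
Each point is 1 of 18697 tested genes, with its MEF level on the vertical axis and the highest level of the 6 other populations on the horizontal axis, both as log2(RPKM + 1). The solid line marks equal levels and the dashed line 4-fold; the 590 higher genes reach from S100a8 at the left to H19 at the top, and the 35 lower genes are those below the lowest of the 6 others.

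The genes were read through 38 lists with 501 distinct members, 136 of which were among the 590 higher genes. The macrophage list had the largest share, 24 of 25 members, followed by mesothelial genes with 4 of 5, smooth muscle and contractile genes with 12 of 16, neutrophil genes with 10 of 15 and skeletal muscle genes with 12 of 20. Fibroblast matrix genes had 12 of 26. In 12 lists no member was higher, among them lymphocyte, mast cell, dendritic cell, erythroid, epithelial, neuron and Schwann cell genes. The share over all tested genes was 3.16%, and the lists were chosen with earlier results of these data known.

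**Figure D2:**
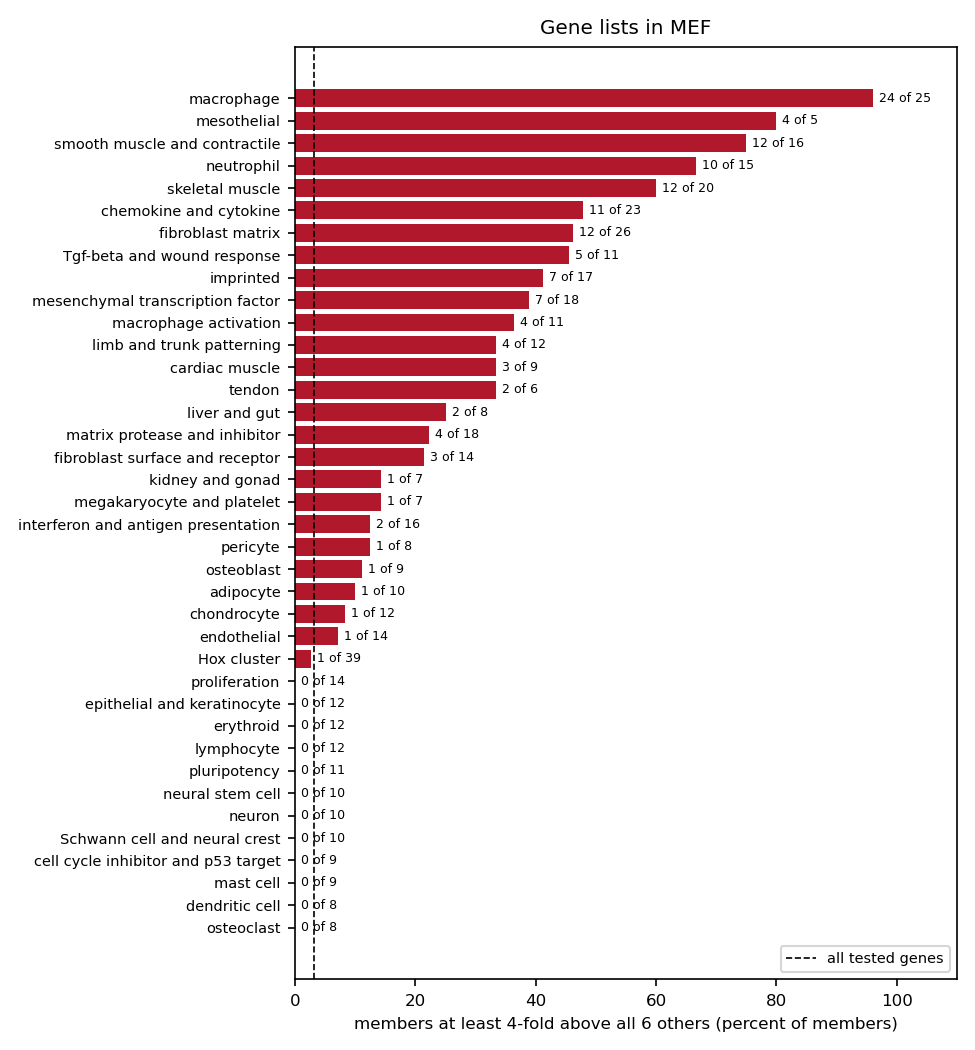
Bars give the percentage of the members of each list that were at least 4-fold above all 6 other populations in MEF, with the counts beside them, and the dashed line marks the 3.16% of all tested genes. Macrophage, mesothelial, contractile, neutrophil, skeletal muscle and chemokine lists stand above the fibroblast matrix list, whose members reach 12 of 26.

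All 26 fibroblast matrix genes were abundant in MEF, from 76.7 to 10202 RPKM with a median of 1066, and 24 of 26 had their highest level there. The median log2 ratio to the highest other was 1.83, against -1.14 over all tested genes. Col1a2 (ENSMUSG00000029661), the second chain of type I collagen, stood at 10202 RPKM in MEF, against 614 in ESC, 171 in Tomato+ NSC, 22.4 on day 6, 12.9 in iPSC, 9.37 in Tomato- NSC and 0.482 in brain NSC. Col1a1 (ENSMUSG00000001506, chromosome 11, 94936224 to 94953042, mm10), which encodes its first chain, stood at 9085 RPKM in MEF and at 291 RPKM in ESC, the highest other, a read ratio with a 95% interval from 31.0 to 31.4, and all 44 of its judged exons were higher. Tropoelastin, encoded by Eln, had its next highest level elsewhere, in brain NSC: 1548 RPKM in MEF against 44.3 in brain NSC, 22.3 on day 6, 21.1 in Tomato- NSC and at most 7.39 in the other 3. The log2 ratio of Eln was 5.10, with a read ratio interval of 34.1 to 36.1.

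Among the collagen genes of the list, Col3a1, Col6a1, Col6a2 and Col6a3 were not called. Their RPKM ratios to the highest other were 3.35, 2.60, 2.52 and 1.23. Some cross-linking and matrix assembly genes were called too. Lox, the lysyl oxidase that links collagen and elastin, stood at 1047 RPKM in MEF against 167 in ESC, 7.45 in Tomato+ NSC and at most 2.22 in the other 4 populations. Bgn, the proteoglycan biglycan, stood at 4730 RPKM in MEF, against 508 in ESC and 268 in Tomato+ NSC (log2 ratio 3.22). Of the 14 matrix genes that were not called, Fbln2 (fibulin 2) had brain NSC as its highest other, at 926 RPKM in MEF against 396 in brain NSC, and the rest had ESC or Tomato+ NSC. Dcn and Lum, the small proteoglycans decorin and lumican, stood at 374 and 154 RPKM in MEF against 741 and 308 RPKM in ESC, and were the 2 matrix genes whose highest level was not in MEF. Fn1, fibronectin, stood at 2583 RPKM in MEF against 1013 in ESC and 506 in iPSC.

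The fibroblast surface list was shared more widely: 3 of 14 members were higher, with a median log2 ratio of 0.26. Pdgfrb, a receptor for platelet-derived growth factor, stood at 150 RPKM in MEF against 22.5 in Tomato+ NSC and 11.7 in ESC, Fap, a surface protease, at 52.2 against 5.61 in ESC, and Itga11, a collagen-binding integrin, at 114 against 24.4 in ESC. Thy1, the usual surface marker of MEF, did not pass, at 583 RPKM in MEF against 158 in ESC and 89.3 in Tomato+ NSC. Nor did the mesenchymal filament gene Vim, at 3595 RPKM in MEF against 2637 in Tomato+ NSC, 1719 in Tomato- NSC and 1176 in brain NSC. Ly6a, which encodes Sca-1, stood at 168 RPKM in MEF, against 792 in ESC, 558 in iPSC, 353 on day 6, 53.9 in Tomato+ NSC, 0.727 in Tomato- NSC and 0.362 in brain NSC.

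Of 18 mesenchymal transcription factor genes 7 were higher. Osr1, of lateral and intermediate mesoderm, stood at 40.7 RPKM in MEF against at most 1.25 RPKM, in ESC (read ratio interval 20.4 to 34.5). Prrx2 and Prrx1, homeobox genes of limb and face mesenchyme, stood at 117 and 111 RPKM in MEF, against 8.20 and 10.7 in Tomato+ NSC, their highest other. Tcf21, known in the mesenchyme of lung, kidney and heart, stood at 11.4 RPKM in MEF, against 0.0411 in ESC and no read in the other 5. Positional genes of several body parts were present together. All 12 limb and trunk patterning genes had their highest level in MEF, and 4 of 12 were called: Hand2 of limb and heart mesenchyme, whose exons all overlap another gene, at 21.4 RPKM against at most 0.327, Alx1 and Alx4 of craniofacial and limb mesenchyme at 8.87 and 6.00 against at most 0.123 and 0.401, and Shox2 at 23.9 against at most 2.43. Hox cluster genes, which mark position along the body axis, were low in general, with 1 of 39 called: Hoxa11, a limb gene, at 6.94 RPKM in MEF against at most 0.936, in brain NSC. The Hox count was 4 without Tomato+ NSC, and 2 without brain NSC or without day 6 cells. In 24 of 39 Hox genes MEF had the highest level, and the median log2 ratio was 0.18.

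Contractile genes had larger ratios to the 6 others than matrix genes. All 16 members of the smooth muscle and contractile list had their highest level in MEF, 12 of 16 were called, and the median log2 ratio was 3.58. Acta2 (ENSMUSG00000035783, chromosome 19, 34241090 to 34255590), the smooth muscle actin of myofibroblasts, stood at 7058 RPKM in MEF, against 43.7 in ESC, 30.1 in Tomato+ NSC, 20.4 in iPSC, 18.9 in Tomato- NSC, 4.05 on day 6 and 1.61 in brain NSC. Its log2 ratio of 7.30 was the highest of the list. ESC, the closest library, was at 0.619% of the MEF level. Tagln, the actin-binding protein SM22, stood at 3649 RPKM in MEF against 35.7 in Tomato+ NSC, 22.7 in iPSC and at most 19.4 in the other 4, with a read ratio interval of 79.8 to 123. Myl9, a myosin light chain, stood at 1240 RPKM in MEF against 25.3 in Tomato- NSC, and 0.347 on day 6.

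Genes of differentiated smooth muscle were in the list too. Myh11, smooth muscle myosin heavy chain, stood at 113 RPKM in MEF and between 0.0824 and 0.415 RPKM in the 6 others, and all 40 of its judged exons were higher. Cnn1, calponin, stood at 146 RPKM in MEF against at most 0.987 RPKM, in iPSC. Myocd, the coactivator myocardin that drives smooth muscle genes, was low but called, at 3.63 RPKM in MEF against at most 0.0555 RPKM, on day 6. Of 11 Tgf-beta and wound response genes all 11 had their highest level in MEF and 5 were called, or 8 without Tomato+ NSC among the others. The ligand gene Tgfb3 stood at 406 RPKM in MEF against 13.7 in Tomato+ NSC and 13.3 in brain NSC, Ankrd1, a stretch-responsive nuclear protein, at 109 against 5.30 in ESC, and Inhba, an activin subunit, at 95.5 against 7.31 in ESC. Ccn1, a matricellular protein, stood at 998 RPKM in MEF against 100.05 on day 6 and 99.9 in ESC.

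The promoters of the contractile list were read for the CArG box, the element bound by serum response factor (CC, then 6 bases that are each A or T, then GG, on either strand). RefSeq (GRCm38.p6) gave promoters, 250 bases before to 50 after the start, for 12 of 16 members. A gene was counted when any of its promoters held the box. This was so for 1 of 12, Myl9, against 1.81% of all 27025 genes with a promoter (1.63% of 32851 promoters). No match says only that this exact pattern is not in this window. Variants of the box, with a base changed, were not searched.

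Striated muscle genes were present at a lower level. Of 20 skeletal muscle genes 12 were higher, with a median log2 ratio of 2.25. Acta1, skeletal actin, stood at 122 RPKM in MEF, against 1.16 in iPSC, 0.714 in ESC and at most 0.291 in the other 4, with a read ratio interval of 86.0 to 137. The myogenic factors were there: Myog, of differentiating myoblasts, at 20.7 RPKM in MEF against at most 0.164, in ESC, and Myod1 at 3.87 with at most 0.1119 in iPSC. Myf5, the factor of early precursors, was at 0.267 RPKM in MEF with no read in the others. Troponin genes of slow and fast fibres were both called, Tnnc1 at 78.9 RPKM in MEF against at most 1.82 and Tnnt3 at 35.1 against at most 0.512. Mylpf, a fast light chain, was an exception, at 153 RPKM in MEF, 549 in iPSC and 515 in ESC. Of 9 cardiac genes 3 were called. They were Tnnt2, cardiac troponin T, at 48.9 RPKM in MEF against at most 0.627, Myl7, the atrial light chain, at 93.1 against 11.1 in iPSC, and Actc1, cardiac actin, at 89.4 against 20.4 in brain NSC. Tnnt2 and Actc1 are also used by embryonic skeletal muscle, and the cardiac factor gene Nkx2-5 was at 0.175 RPKM in MEF.

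Other connective tissue lists had few called genes, although most were highest in MEF by summed level. The chondrocyte, tendon, adipocyte and pericyte lists summed to 672, 314, 230 and 690 RPKM in MEF. Elsewhere they reached at most 443, 140, 86.3 and 178 RPKM. Much of the chondrocyte and pericyte sums came from Col11a1 and Ndufa4l2. The osteoblast list summed to 37.8 RPKM in MEF and 429 in ESC. Of 12 chondrocyte genes 1 was called (3 without Tomato+ NSC among the others), Col11a1 at 477 RPKM in MEF against 51.9 in Tomato+ NSC, whereas the cartilage collagen gene Col2a1 was at 119 RPKM in MEF and 268 in Tomato+ NSC, and Acan was at 2.94 in MEF and 3.29 in Tomato+ NSC. Of 6 tendon genes 2 were called, Tnmd (tenomodulin) at 105 RPKM in MEF against 5.84 in ESC and Fmod (fibromodulin) at 121 against 13.4 in Tomato+ NSC. Of 10 adipocyte genes only Fabp4, which macrophages also use, was called, at 121 RPKM in MEF against 27.6 in ESC, and Adipoq was at 0.0607 RPKM. Of 9 osteoblast genes Ibsp, bone sialoprotein, was called higher at 14.4 RPKM in MEF against at most 0.0472, and Alpl, alkaline phosphatase, was called lower at 1.99 RPKM in MEF against 13.2 to 388. Of 8 pericyte genes 1 was called (2 without Tomato+ NSC), Ndufa4l2 at 502 RPKM in MEF against 35.6 in ESC. In 5 of 8 the highest level was in MEF. Rgs5, Abcc9 and Kcnj8 had RPKM ratios of 7.32, 7.59 and 6.84 before 1 RPKM was added but were not called. At a pseudocount of 0.25 RPKM 4 pericyte genes were called.

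Mesothelium, the lining of the body cavities, was represented by 4 of 5 list members. Wt1 (ENSMUSG00000016458), a transcription factor of mesothelium and of kidney and gonad precursors, stood at 19.2 RPKM in MEF, against 0.174 in ESC, 0.144 in iPSC, 0.0330 on day 6 and no read in the 3 NSC libraries (read ratio interval 70.1 to 158). The uroplakin genes Upk3b and Upk1b, used as mesothelial markers, stood at 37.5 and 37.7 RPKM in MEF against at most 1.35 and 2.72. Msln, mesothelin, was the exception, at 18.0 RPKM in MEF and 76.2 on day 6. Of 7 kidney and gonad genes 1 was called (2 without brain NSC among the others), Gata4, at 12.7 RPKM in MEF against at most 2.42, in ESC. In 5 of 7 the highest level was in MEF, and 3 of 7 reached 2 RPKM there. Among the 5 were Six2 and Emx2, with RPKM ratios of 8.34 and 1.15 to the highest other. Pax2, Pax8 and Nr5a1 were between 0.144 and 0.160 RPKM in MEF.

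Macrophage genes formed the most complete list. Of 25 members 24 were called, and the median log2 ratio was 5.23. The exception was Laptm5, a lysosomal protein of blood cells, at 108 RPKM in MEF against 293 in iPSC, 142 in ESC and 63.5 on day 6. C1qa (ENSMUSG00000036887, chromosome 4, 136895917 to 136898803), a chain of the complement starter C1q made mainly by tissue macrophages, stood at 279 RPKM in MEF, against 1.27 in ESC, 0.304 in Tomato+ NSC, 0.206 in Tomato- NSC and no read on day 6, in brain NSC and in iPSC. Its neighbours C1qb and C1qc behaved alike, at 325 and 238 RPKM in MEF against at most 3.004 and 1.93, both in ESC. Lyz2, lysozyme of macrophages and neutrophils, was the most abundant member, at 2098 RPKM in MEF against 93.5 in ESC and 9.06 in Tomato+ NSC, and at most 0.616 in the other 4. Fcer1g and Tyrobp, adaptor proteins of activating receptors, stood at 325 and 524 RPKM in MEF against at most 0.989 in Tomato- NSC and 9.66 in iPSC. The summed level of the 25 genes was 5604 RPKM in MEF, against 367 in iPSC, 336 in ESC, 96.1 on day 6, 29.0 in Tomato+ NSC, 14.5 in Tomato- NSC and 11.3 in brain NSC.

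Lineage-defining members were called too. Csf1r, the receptor macrophages need to survive, stood at 68.5 RPKM in MEF against 4.36 in iPSC and at most 3.70 in the other 5. Its 22 exons without overlap held 14661 reads in MEF against 108 in ESC and 23 in iPSC, so most of the level listed for iPSC lay outside them. Its ligand Csf1 was called too, at 116 RPKM in MEF against 23.7 in Tomato+ NSC. Spi1, which encodes the myeloid factor PU.1, stood at 44.4 RPKM in MEF against 1.52 in ESC and at most 0.833 elsewhere. Adgre1, which encodes the antigen F4/80, stood at 82.7 RPKM in MEF against 0.743 in ESC, and Ptprc, the blood cell antigen CD45, at 15.1 against at most 0.106.

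Since Spi1 was among the higher genes, the promoters of the list were read for the PU.1 core GAGGAAG on either strand. Of the 17 members with a RefSeq promoter 8 held it, against 15.4% of all 27025 genes with one (13.6% of all 32851 promoters). They were C1qc, Clec4d, Ctss, Fcgr1, Itgam, Laptm5, Mrc1 and Trem2, and Laptm5 was the one of them that was not called. A match describes the letters and is not evidence of binding. The promoters below show the spread of the match positions, in 3 genes of different roles: Trem2, a lipid receptor, Itgam, the integrin chain CD11b, and C1qc. They are written 5′ to 3′ along the gene, and the capitals mark the core.
Trem2, chr17:48346151-48346450, plus strand: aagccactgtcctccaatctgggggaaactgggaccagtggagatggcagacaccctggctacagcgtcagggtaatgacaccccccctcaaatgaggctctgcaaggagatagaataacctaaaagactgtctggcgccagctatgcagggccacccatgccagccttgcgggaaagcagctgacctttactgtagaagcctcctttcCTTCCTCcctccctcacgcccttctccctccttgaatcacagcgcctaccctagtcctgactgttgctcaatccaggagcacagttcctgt
Itgam, chr7:128062390-128062689, plus strand: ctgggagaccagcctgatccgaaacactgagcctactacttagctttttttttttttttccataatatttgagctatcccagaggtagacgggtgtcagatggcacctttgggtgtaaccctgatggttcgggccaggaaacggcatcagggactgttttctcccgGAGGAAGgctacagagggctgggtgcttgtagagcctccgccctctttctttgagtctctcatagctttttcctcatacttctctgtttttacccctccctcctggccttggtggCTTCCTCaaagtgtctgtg
C1qc, chr4:136892865-136893164, minus strand: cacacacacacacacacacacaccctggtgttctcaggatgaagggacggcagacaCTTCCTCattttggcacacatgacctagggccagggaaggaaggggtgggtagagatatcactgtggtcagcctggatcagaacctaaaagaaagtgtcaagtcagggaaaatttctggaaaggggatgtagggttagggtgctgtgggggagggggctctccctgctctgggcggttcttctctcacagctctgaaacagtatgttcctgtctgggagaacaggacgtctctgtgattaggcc
The core begins 41 bases before the start in Trem2 and 194 in C1qc, and in Itgam 84 bases before it and again at base 32 after it. These genes stood at 91.2 RPKM (Trem2), 47.4 RPKM (Itgam) and 238 RPKM (C1qc) in MEF, against at most 0.702, 0.636 and 1.93 RPKM in the 6 others.

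Genes used as markers of opposite macrophage activation states were called together, and which cells of the culture held them was not tested. Of 11 activation genes 4 were called, and 8 had their highest level in MEF. Arg1, arginase of repair-type macrophages, stood at 861 RPKM in MEF against 31.2 in Tomato+ NSC, 5.51 on day 6 and at most 1.04 in the other 4. Chil3, another gene of that state in the mouse, stood at 22.2 RPKM in MEF against 0.123 in Tomato+ NSC with no read in the other 5. Acod1 and Ptgs2, genes of the inflammatory state, stood at 8.32 and 31.7 RPKM in MEF against at most 0.423 and 5.97. Nos2 was at 0.933 RPKM in MEF and 2.09 on day 6, and Retnla at 0.149 in MEF and 0.351 in Tomato+ NSC. Cd163 too was below its highest other, with an RPKM ratio of 0.0138. Lilrb4a, an inhibitory receptor, was among the genes of the highest ratio, at 683 RPKM in MEF against 7.09 in ESC, although none of its exons of at least 50 bases is free of overlap with another gene. So were F13a1 and Pf4, which stood at 261 and 348 RPKM in MEF against at most 2.28 and 2.996. F13a1 is known in tissue macrophages and platelets and Pf4 in platelets and some macrophages, and the other 6 megakaryocyte genes were not called.

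Chemokine genes went with them, with 11 of 23 called. Ccl3, Ccl9, Ccl6 and Ccl12, chemokines made by myeloid cells, stood at 23.8, 42.7, 136 and 128 RPKM in MEF, against at most 0.350, 1.55, 8.67 and 6.37. Cxcl12, made by stromal cells, stood at 198 RPKM in MEF against 23.2 in ESC. Il1b and Tnf were low but called, at 5.54 and 9.08 RPKM in MEF against at most 0.0776 and 0.498. Ccl8 went the other way, at 1.52 RPKM in MEF against 227 in ESC, as did Cxcl5, at 5.05 RPKM in MEF against 83.4 in ESC.

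Of 15 neutrophil genes 10 were called, and S100a8 and S100a9 had the highest ratios of all 590 higher genes, at log2 9.44 and 9.05. S100a8 (ENSMUSG00000056054, chromosome 3, 90668978 to 90670035) and S100a9, the subunits of calprotectin, stood at 768 and 761 RPKM in MEF. In the 6 others S100a8 was at most 0.108 RPKM and S100a9 at most 0.434 RPKM, both in Tomato+ NSC. S100a8 had 1 read in that library over the exon that overlaps no other, so that its read ratio interval runs from 461 to 101529, and that of S100a9 from 704 to 6617. Granule protein genes showed the same: Ngp at 168 RPKM in MEF against at most 0.0431, Camp at 155 against at most 0.780, and Ltf, lactoferrin, at 36.5 against at most 0.452. Genes of the earliest granules, which immature cells make, were lower: Prtn3 at 19.6 RPKM in MEF against 3.25 on day 6, Elane at 16.02 against 3.30 on day 6 (not called) and Mpo at 6.86 against at most 0.343. Receptors of mature neutrophils were lowest, Csf3r at 4.52 and Cxcr2 at 0.981 RPKM in MEF, neither called. Ly6g, the usual surface antigen, was at 47.0 RPKM in MEF but at 341 in ESC and 153 in iPSC. Stefin genes, which encode cysteine protease inhibitors found in mouse neutrophils, were called as well. On chromosome 16, 14 neighbouring genes and unnamed models between 36135939 and 36455392 were higher, among them Stfa2 at 197 RPKM in MEF with no read in the others, Stfa2l1 at 160 against at most 0.0823 and Stfa3 at 94.5 against at most 0.251. The stefin genes are near-identical copies, and how reads were split between them cannot be told apart. Some of the unnamed models also held nearly the same reads in exons of unlike length, a limit described below for chromosome 7. Exons of Gm5416, from 66 to 126 bases, held 622 to 624 MEF reads. Those of Gm10813, from 24 to 66 bases, held 510 each.

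Most genes of other blood cells were low in MEF or had no read there. Cd3e, Cd8a and Ms4a1 of lymphocytes had no read in MEF, and the highest member, Lck, was at 2.96 RPKM in MEF against 19.8 in ESC. The mast cell proteases Cpa3, Mcpt4, Tpsb2 and Cma1 had no read in MEF. Dendritic cell genes were at most 2.65 RPKM (Cd83). Of 8 osteoclast genes none was called, and 2 had their highest level in MEF. These were Tnfrsf11a and Mmp9, with RPKM ratios of 7.81 and 2.18 to the highest other. Ctsk was at 38.5 RPKM in MEF and 75.1 in ESC, and Dcstamp at 0.0669 in MEF. Among 12 erythroid genes the highest were the alpha globins Hba-a1 and Hba-a2, at 5.50 and 5.33 RPKM in MEF against 2.58 and 2.47 in ESC. Of 14 endothelial genes 1 was called, Flt1, a Vegf receptor, at 22.6 RPKM in MEF against 3.24 in ESC. The junction genes Cdh5 and Cldn5 were at 0.134 and 0.0314 RPKM in MEF, and Pecam1 at 1.802 RPKM in MEF against 138 in ESC and 93.5 in iPSC, which use it without being endothelial. Pecam1 was above the other 4 populations, at most 0.256 RPKM there.

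**Figure D3:**
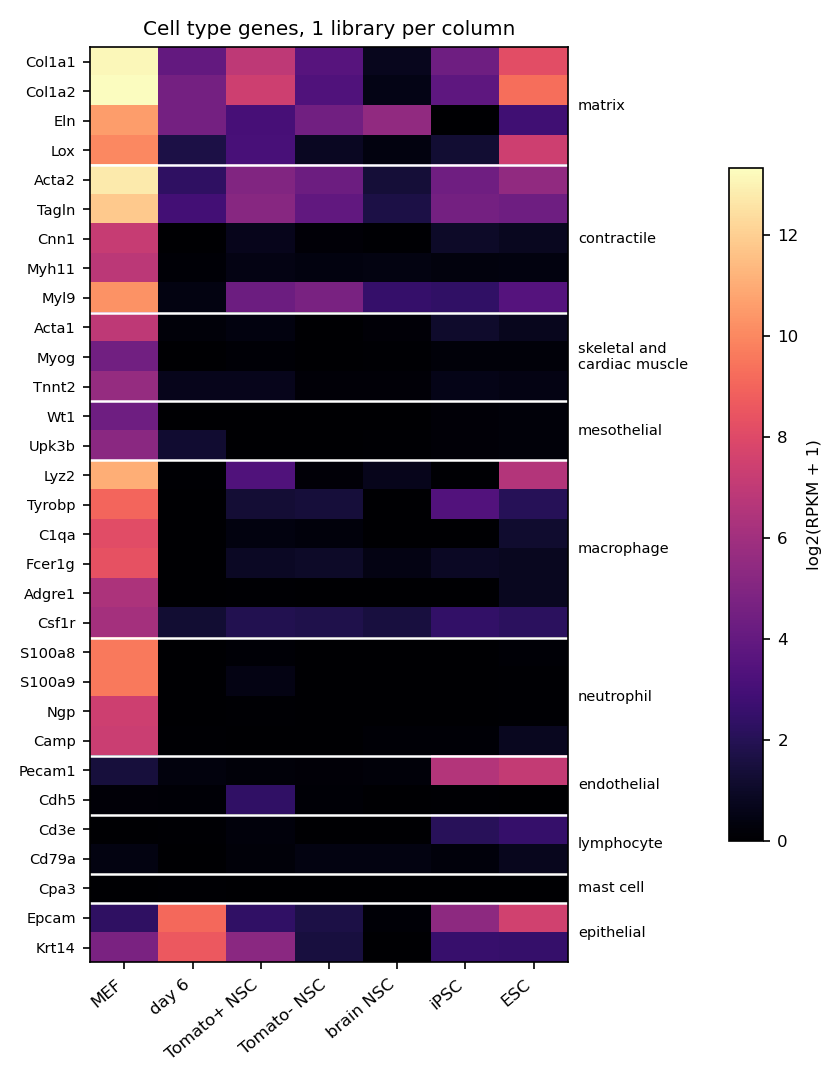
Rows are genes grouped by cell type, columns are the 7 libraries with MEF at the left, and the colour is log2(RPKM + 1). Matrix, contractile, muscle, mesothelial, macrophage and neutrophil rows are brighter in MEF than in the 6 others, whereas endothelial, lymphocyte and mast cell rows are dark there and epithelial rows are brighter on day 6.

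Few genes of the liver and gut, Schwann cell, neuron and epithelial lists were called. Of 8 liver and gut genes 2 were called, Alb (albumin) at 23.7 RPKM in MEF against 3.21 in Tomato- NSC and Ttr (transthyretin) at 22.4 against 1.10 in Tomato- NSC. Afp was at 29.6 RPKM in MEF and 12.8 in Tomato- NSC, while the liver factor gene Hnf4a was at 0.249 RPKM in MEF and Apoa1 at 0.751. Of 10 Schwann cell and neural crest genes none was called, and Sox10, a factor of the neural crest, stood at 7.54 RPKM in MEF against 5.45 in Tomato+ NSC. Of the neuron genes Stmn2, a neuronal tubulin regulator, was highest, at 97.6 RPKM in MEF against 609 on day 6, and Rbfox3 was at 0.215 in MEF. Epithelial keratin genes Krt19 and Krt14 were at 36.6 and 25.8 RPKM in MEF, below the 261 and 391 RPKM of day 6 cells.

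Antigen presentation genes were high in MEF by smaller ratios. Of 16 interferon and antigen presentation genes 15 had their highest level in MEF, 2 were called (4 without ESC, or without day 6 cells, among the others), and the median log2 ratio was 1.01. The exception was Oas1a, at 23.0 RPKM in MEF against 44.6 in ESC and 40.7 in iPSC. B2m, the light chain of class I molecules, stood at 2822 RPKM in MEF, against 1042 on day 6, 385 in ESC, 344 in Tomato+ NSC, 259 in Tomato- NSC, 251 in brain NSC and 64.4 in iPSC. The called members Psmb8 and Psmb9, subunits of the immunoproteasome, stood at 52.9 and 14.3 RPKM in MEF against 5.42 and 2.81 in ESC. The interferon-stimulated element (GAAA, then any 2 bases, then GAAA) was searched on either strand. It was found in 6 of the 12 members with a RefSeq promoter (B2m, Bst2, Ifit1, Ifit3, Isg15 and Oas1a), against 3.99% of all genes with one. None of these 6 was called. Isg15, a ubiquitin-like protein, held it in 3 overlapping copies, beginning 78, 72 and 66 bases before the start, and stood at 91.6 RPKM in MEF against 36.9 in ESC and at most 8.37 elsewhere. Its promoter is shown with the overlapping copies in capitals.
Isg15, chr4:156200769-156201068, minus strand: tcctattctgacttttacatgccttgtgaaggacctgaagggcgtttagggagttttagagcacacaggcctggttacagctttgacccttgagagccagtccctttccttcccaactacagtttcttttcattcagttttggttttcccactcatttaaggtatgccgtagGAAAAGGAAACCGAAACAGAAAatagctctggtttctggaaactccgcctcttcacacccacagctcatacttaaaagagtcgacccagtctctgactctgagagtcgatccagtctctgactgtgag

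Matrix protease genes had 4 of 18 members called, or 8 without ESC among the others. Mmp12, the elastase of macrophages, stood at 40.01 RPKM in MEF against 2.17 in ESC, Mmp23 at 188 against 27.0 in ESC, and Plau, urokinase, at 205 against 39.1 in Tomato+ NSC. Mmp3 and Mmp10, the stromelysins, had their highest level in ESC, at 9.89 and 1.54 RPKM in MEF against 297 and 7.21 in ESC. The AP-1 element TGAGTCA, on either strand, lay in promoters of 4 of the 12 members that had one (Mmp3, Mmp10, Mmp12 and Mmp13). The share was 5.95% over all genes with a promoter, and Mmp12 was the called one among the 4.

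Imprinted genes went in different directions, with 7 of 17 called and 10 of 17 at their highest level in MEF. H19 (ENSMUSG00000000031, chromosome 7, 142575529 to 142578143), a noncoding RNA expressed from the maternal allele, had the highest level of any called gene, 18104 RPKM in MEF against 471 in Tomato+ NSC, 250 in ESC, 107 in iPSC, 76.5 in Tomato- NSC, 42.2 on day 6 and 1.58 in brain NSC. Igf2, its paternally expressed growth factor neighbour, stood at 3008 RPKM in MEF against 98.8 in Tomato+ NSC (read ratio interval 25.1 to 30.6). The locus of Dlk1 and Meg3 on chromosome 12 had 5 called genes, with Dlk1 at 283 RPKM in MEF against 58.7 in Tomato+ NSC, and Meg3, Rian and Mirg at 369, 179 and 32.8 RPKM against 27.6, 43.9 and 7.35 in ESC. Plagl1, a growth-restraining zinc finger gene, stood at 271 RPKM in MEF against 46.0 in iPSC. Mest, Nnat and Peg10 had their highest levels in OSKM NSC, with Mest at 469 RPKM in MEF against 1553 in Tomato+ NSC and 1522 in Tomato- NSC.

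Igf2 opens a stretch of chromosome 7 in which the RPKM values cannot be read as gene levels. Ins2, an insulin gene, Th, the tyrosine hydroxylase of catecholamine cells, Ascl2, Tspan32 and the model Gm6471 were all called, with Ins2 at 195 RPKM and Th at 170 RPKM in MEF and no read of Ins2 in the others. Each of the 17 exons of Ins2 held 1420 to 1434 MEF reads, although the exons measure from 24 to 352 bases. The 16 exons of Th, from 51 to 535 bases, held 1420 to 1429 reads, the 4 of Gm6471 held 1420 each, those of Ascl2 1422 to 1447 and those of Tspan32 1420 to 1552. Flanking this stretch, exon reads varied with the exon, from 1434 to 508702 in Igf2 and from 8749 to 27810 in Cd81. Whether these reads lie in the exons or span them was not tested.

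**Figure D4:**
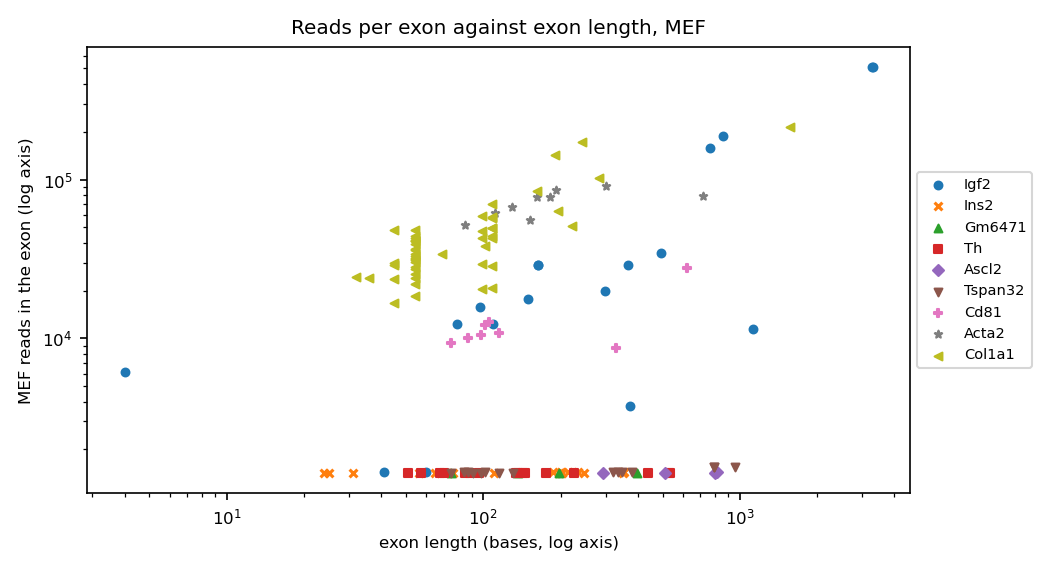
Each point is 1 exon, with its length on the horizontal axis and its MEF reads on the vertical axis, both on log axes, for 7 genes of the chromosome 7 stretch and for Acta2 and Col1a1. Exons of Ins2, Gm6471, Th, Ascl2 and Tspan32 lie on 1 level line near 1420 reads whatever their length, whereas Col1a1 and Acta2 exons lie between 16668 and 213574 reads.

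The same evenness of MEF reads was looked for in all genes, as a lowest exon count of at least 0.7 of the highest where the longest exon was at least 2 times the shortest and the highest count was at least 20 reads. Of 543 higher genes that could be judged 24 (4.42%) were even, against 268 of the 13402 other tested genes judged. Besides the chromosome 7 genes they included Myh1 and Myh4, fast skeletal myosin genes whose exons held 1270 to 1510 reads in Myh1 and 1262 to 1524 in Myh4, Entpd4b and 3 models beside it, of which Gm27174 held 15172 reads in each exon, and H2-Q2, H2-Q5 and H2-Q6. Of the list members Ccl4 alone was among them. Of the 35 lower genes, Nat8f7 and Nat8f3 were even by the same measure in each of the 6 other libraries. Without these 24 genes 566 were higher, and the counts of the macrophage, contractile and matrix lists did not change.

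By the median level per gene, ESC and Tomato+ NSC came nearest to MEF in the matrix, contractile and macrophage lists, at levels that differed between the lists. By summed level the order was the same for matrix genes only. Contractile genes summed to 543 RPKM in Tomato+ NSC, 502 on day 6, 341 in Tomato- NSC and 336 in ESC. Macrophage genes summed to 367 RPKM in iPSC, 336 in ESC, 96.1 on day 6 and 29.0 in Tomato+ NSC. Over the 26 matrix genes the median level in percent of MEF was 16.4% in ESC and 14.4% in Tomato+ NSC, against 1.18% in Tomato- NSC, 0.751% on day 6, 0.283% in iPSC and 0.0804% in brain NSC. The 14 contractile genes at 20 RPKM or more in MEF had medians of 1.89% in ESC and 1.23% in Tomato+ NSC, with 0.347% to 0.994% in the other 4. For the 22 macrophage genes at that level the medians were 1.25% in ESC, 0.346% in Tomato+ NSC, 0.0881% in iPSC, 0.0406% in Tomato- NSC and 0.0225% on day 6, and 0 in brain NSC. ESC was the highest other for 14 of the 22. The labels give MEF feeders for ESC, and how much feeder RNA the ESC library held was not tested. Tomato+ NSC are labelled as free of feeders.

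**Figure D5:**
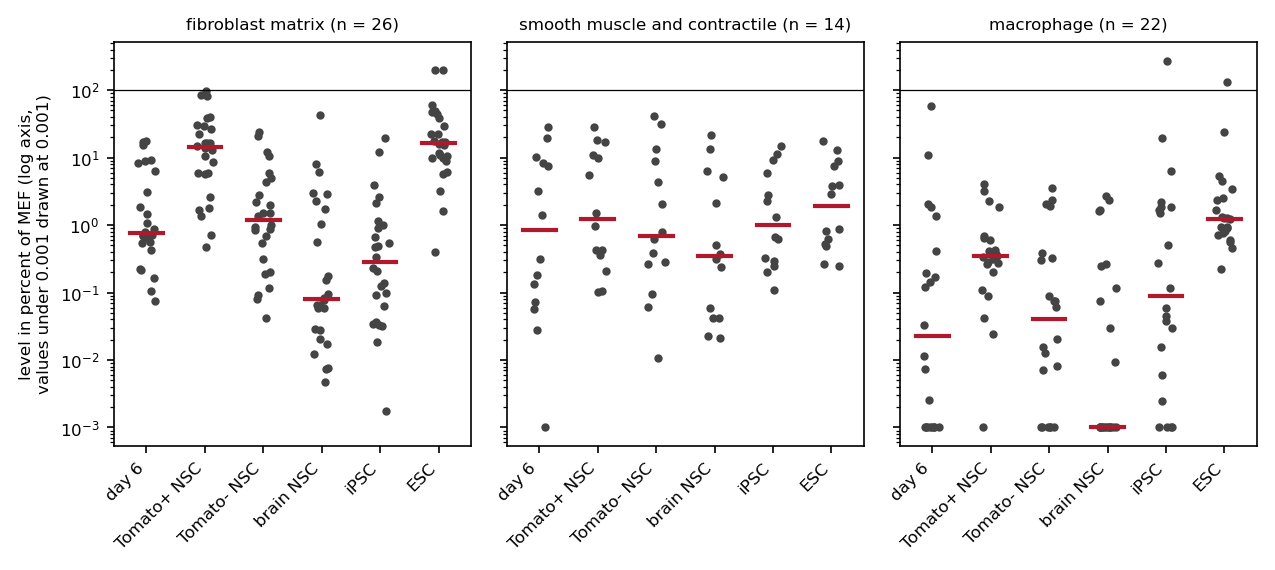
Each point is 1 list member with at least 20 RPKM in MEF, and its height is the level in the population named below it in percent of MEF, on a log axis with values under 0.001% drawn there. Red bars are medians; in the matrix panel those of ESC (16.4%) and Tomato+ NSC (14.4%) lie highest, and in the contractile and macrophage panels the medians of the 6 populations are at most 1.89% and 1.25%.

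At the other end, 35 genes were called lower in MEF than in all 6 others, a count that was 73 without brain NSC and 55 without day 6 cells among the others. Tfrc (ENSMUSG00000022797, chromosome 16, 32608920 to 32632794), the transferrin receptor that brings in iron, stood at 6.19 RPKM in MEF, against 247 in iPSC, 194 in brain NSC, 181 in Tomato- NSC, 174 in Tomato+ NSC, 170 on day 6 and 123 in ESC. The log2 ratio of MEF to the lowest of them, ESC, was -4.10. Sox2, a factor of pluripotent and neural stem cells, followed at 2.92 RPKM in MEF against 65.4 to 252 RPKM, where the transgene can add to its level on day 6 and in OSKM NSC. Gldc, glycine decarboxylase of one-carbon metabolism, stood at 2.87 RPKM in MEF against 46.6 in iPSC, the lowest other, to 135 on day 6. Pipox, which breaks down sarcosine, stood at 0.356 RPKM in MEF against 20.1 to 164. Nup210, a nuclear pore membrane protein, stood at 1.28 RPKM in MEF against 26.9 to 77.0, and Car2, a carbonic anhydrase, at 2.31 against 31.4 to 226. Nxf3, Ccdc88c, Bex2 and the pseudogene Alms1-ps1 were also among the lowest ratios. The 9 exons of Alms1-ps1, from 42 to 1153 bases, held 43 to 60 reads in MEF and 965 to 1347 in iPSC, the highest, so that its RPKM has the same limit as that of Ins2.

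Of 14 proliferation genes none was called. None of the 14 had its highest level in MEF, and the median log2 ratio to the highest other was -2.28, against -1.14 over all tested genes. The replication helicase gene Mcm2 stood at 27.1 RPKM in MEF against 38.1 in brain NSC to 337 in iPSC, and Pcna, the replication clamp, at 49.0 against 74.4 in brain NSC to 313 in Tomato+ NSC. Over the 13 members at 20 RPKM or more in MEF, the median level in percent of MEF was 109% in brain NSC and between 234% and 458% in the other 5. The mitotic genes Cdk1 and Plk1 were above brain NSC, Cdk1 at 105 RPKM in MEF against 65.9 in brain NSC and Plk1 at 63.0 against 31.2. Among 9 cell cycle inhibitor and p53 target genes none was called, and the median log2 ratio to the highest other was -0.99. Of these 9, 3 had their highest level in MEF. They were the inhibitor genes Cdkn1a, Cdkn2a and Cdkn2b, at 438, 150 and 109 RPKM against at most 346, 111.8 and 36.9 RPKM. Ccng1, Bbc3, Mdm2, Gdf15, Sesn2 and Trp53inp1 were below their highest other, with RPKM ratios from 0.534 (Ccng1) down to 0.206 (Trp53inp1). Pou5f1, which encodes Oct4, stood at 1.09 RPKM in MEF, near the 1.32 of Tomato- NSC, 1.55 of brain NSC and 3.13 of Tomato+ NSC, against 886 on day 6, 1410 in ESC and 2067 in iPSC. As for Sox2, the transgene can add to the Pou5f1 level on day 6 and in OSKM NSC. Of 11 pluripotency genes none was higher, and of 10 neural stem cell genes none was higher and none had its highest level in MEF.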

How the data were processed

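The RPKM values were deposited by the authors as 1 value per Ensembl exon and library. Per the submitters' processing notes the build was mm10 and the tools were bedtools, TopHat2 (2.0.10), CASAVA (1.8.2) and Bowtie, with no role stated. Per the labels' protocols libraries were made with a TruSeq RNA v2 kit, which does not mark strand, so reads of overlapping genes on either strand cannot be told apart. Of 279252 exons 270168 (96.7%) were matched by ID to GENCODE M21, giving 29686 genes, and 14816 of these exons overlap an exon of another gene. Gene levels are exon-length-weighted means, and ratios are log2 of (RPKM + 1), which understates the change of low genes. Genes needed 2 RPKM in any library.

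Reads were recovered from the steps of the values. Ratios of reads over exons that do not overlap have 95% exact (Clopper-Pearson) intervals, printed where they hold the RPKM ratio. These cover at most counting error. They treat reads of different exons as independent, so a read counted in several exons makes them too narrow. An exon listed at 0 allows up to 3 reads. PCR copies are not separated.

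The genes named are the 20 highest and 10 lowest called genes (unnamed models left out), up to 4 called members of each list or the 2 highest where none was called, and Mbd3, Thy1, Col1a1, Vim, Csf1r, Pecam1, Pou5f1 and Sox2. Further genes named were chosen after their values were seen, and some genes under the rule are left out. Members and lists were chosen with earlier results of these data known. No p-value is given. On simulated data with counting noise the rule counted 0% of genes set 4-fold and 100% of those set 8-fold higher, with no unchanged gene called. Python 3.11.15, pandas 2.3.3 and bedtools 2.31.1 were used.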

Additional observations from a re-analysis of the deposited data

How the results depend on the processing

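No paired analysis was possible because each group has 1 library. Of the counts reported, 590 genes higher and 35 lower, a pseudocount of 4 RPKM gave 355 higher and 16 lower, a pseudocount of 0.25 RPKM 727 and 70, a 2-fold rule 1363 and 389, an 8-fold rule 246 and 12, and the highest exon of each gene 609 and 63. The pseudocounts and fold rules move the counts by construction, and for the highest exon, under which 517 of the 590 genes were shared, the cause was not tested. With single populations left out of the 6 others the lower count became 55 without day 6 cells and 73 without brain NSC, and the higher count 751 without ESC and 724 without Tomato+ NSC. Leaving out ESC and iPSC together gave 915 higher and 78 lower, and Pecam1 then changed direction, to a log2 ratio of 1.16. Scaling to equal totals gave 552 and 44, and median-of-ratios scaling 763 and 25, with the median log2 ratio of all genes moving to -1.23 and -0.88. Floors of 8 RPKM and of none gave 529 and 590 higher.

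The matrix list had 22 of 26 members at 2-fold, 7 at 8-fold, 15 under median-of-ratios scaling and 17 without ESC and iPSC. Under both scalings the macrophage list kept a count of 24 and the contractile list 12, while Hox calls ranged from 0 to 4, Gata4 was lost under equal totals, and matrix protease and Tgf-beta calls reached 8 each under median-of-ratios scaling, against 4 and 5. At a pseudocount of 4 RPKM skeletal muscle calls were 7 against 12, neutrophil 6 against 10, mesenchymal factor 4 against 7, and macrophage activation and limb patterning 2 each against 4. Leaving out genes of even exon reads, chosen after seeing the data, gave 566 higher (even in MEF) and 33 lower (even in all 6 others). Tomato+ NSC and brain NSC, the shallowest libraries, limit how low an absent gene can be shown to be.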
